A study of Mus musculus with 16 samples.

Results

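The genes described here are the nuclear genes for subunits of the 5 complexes of oxidative phosphorylation, followed in mouse tail tendon fascicles with and without Vhl. They were taken by symbol (Nduf with a letter a, b, c, s or v and a digit, Sdha to Sdhd, Uqcr genes, Cyc1, Cox5 to Cox8 genes and Atp5 genes), and Ndufa4l2 was left out. This gave 84 of the 25719 listed genes: 37 in complex I, 4 in complex II, 9 in complex III, 16 in complex IV and 18 in complex V. The symbol Atp5o stood for 2 identifiers, which were kept apart.

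Total RNA was sequenced from 8 wild type and 8 ScxCre;Vhlf/f (knockout) fascicle libraries. In the knockout, Cre recombinase driven by the tendon gene Scx recombines a floxed Vhl gene, so cells outside the Scx lineage keep it. Per the labels no cell type was selected, and a library therefore mixes all cells that the dissected strands held. Age, sex, the alleles of the wild type mice and whether a library is 1 animal are not given in the sources used here, so p-values measure the spread between libraries, which may in part be technical. Total counts ran from 10792900 to 16379401 in the wild type and from 10488355 to 18753254 in the knockout.

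The respiratory chain passes electrons from NADH (complex I) and succinate (complex II) through ubiquinone, complex III and cytochrome c to oxygen at complex IV, and complexes I, III and IV pump protons that drive ATP synthesis by complex V. Most subunits are encoded in the nucleus and imported, whereas a small set of core subunits of complexes I, III, IV and V is encoded by mitochondrial DNA, and complex II is wholly nuclear. Several complex IV subunits have tissue-specific isoforms, among them Cox6a2, Cox7a1 and Cox8b of heart and skeletal muscle. Vhl encodes the substrate receptor of the ubiquitin ligase that marks hydroxylated hypoxia-inducible factors for degradation, and these factors are known regulators of mitochondrial genes.

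The sequences before the start sites of 4 genes are shown: Atp5e, because it had the smallest adjusted p of the subunit genes, Cox8b and Cox8a, because they are a muscle and a ubiquitous isoform whose ratio is described below, and Cox6a1 as a further ubiquitous isoform of complex IV. Each runs over the 250 bases before the RefSeq gene start (build GRCm38.p6), and all 4 lie on the minus strand: Atp5e at chr2:174464102-174464351, Cox6a1 at chr5:115348959-115349208, Cox8a at chr19:7217617-7217866 and Cox8b at chr7:140900447-140900696. Capitals mark matches, on either strand, to TGCGCA (part of the site of the regulator NRF1), CCGGAAG (the ETS family, which includes GABP) and ACGTG (the core of the hypoxia response element).
Atp5e: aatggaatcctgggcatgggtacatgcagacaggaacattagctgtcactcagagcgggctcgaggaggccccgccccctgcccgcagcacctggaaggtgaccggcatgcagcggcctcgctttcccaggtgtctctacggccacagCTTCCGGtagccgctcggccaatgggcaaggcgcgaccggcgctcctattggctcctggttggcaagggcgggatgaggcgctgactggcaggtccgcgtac
Cox6a1: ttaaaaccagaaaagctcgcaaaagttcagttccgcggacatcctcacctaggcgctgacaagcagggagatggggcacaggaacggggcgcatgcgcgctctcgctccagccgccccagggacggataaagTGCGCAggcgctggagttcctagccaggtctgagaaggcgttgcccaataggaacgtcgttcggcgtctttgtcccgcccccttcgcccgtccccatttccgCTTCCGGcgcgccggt
Cox8a: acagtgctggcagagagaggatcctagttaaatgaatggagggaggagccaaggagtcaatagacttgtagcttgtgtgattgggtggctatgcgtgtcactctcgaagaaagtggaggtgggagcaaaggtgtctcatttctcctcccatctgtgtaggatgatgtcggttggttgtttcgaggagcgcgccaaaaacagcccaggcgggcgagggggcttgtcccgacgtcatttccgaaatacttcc
Cox8b: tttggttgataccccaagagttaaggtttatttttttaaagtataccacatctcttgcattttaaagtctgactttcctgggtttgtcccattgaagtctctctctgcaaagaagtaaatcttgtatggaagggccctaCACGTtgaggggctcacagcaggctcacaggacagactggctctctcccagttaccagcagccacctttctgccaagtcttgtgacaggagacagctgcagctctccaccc
In these windows Cox6a1 held 1 match to TGCGCA and 1 to the ETS motif, Atp5e held 1 to the ETS motif, Cox8b held 1 to ACGTG, and Cox8a held none. RefSeq start windows of 300 bases were matched for 64 of the 80 tested member symbols, giving 69 windows. TGCGCA was in 18 of these 69 (26.1%) against 7.76% of all 32851 windows, the ETS motif in 16 (23.2%) against 8.86%, and ACGTG in 17 (24.6%) against 19.6%. The 3 motifs do not contain one another, and a match describes letters only. Other forms of these sites were not marked, so lower case does not mean that a site is absent.

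Vhl itself checked the labels. Its level was 14.1 to 25.8 CPM (counts scaled to a common library size, here after trimmed mean of M-values, TMM), with a median of 20.5, in the wild type, and 7.50 to 10.9, with a median of 9.51, in the knockout. The groups did not overlap (-1.13 on the log2 scale with an SE of 0.113; adjusted p = 9.64e-08 by edgeR).

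Of the 84 genes, 81 passed the expression filter. The other 3 were isoform genes of complex IV, known mainly from testis or germ cells: Cox8c had 0 counts in every library, Cox7b2 had 5 counts in all 16 libraries together, and Cox6b2 had 1 to 9 counts per wild type and 6 to 11 per knockout library. A floor of 3 counts corresponds to between 0.145 and 0.336 CPM depending on the library, and it covers counting error only.

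Nuclear-encoded subunit transcripts differed little between the genotypes. Among the 81 tested genes, 2 rose and 13 fell in the knockout (adjusted p under 0.05), which is 18.5% of them, against 48.3% of all 14803 tested genes (25.6% higher, 22.7% lower). The precision was alike, with a median SE of the log2 fold change of 0.115 for the subunit genes and 0.106 for all tested genes. For 75 of the 81 the log2 fold change lay within 0.5 of 0 (92.6%), against 71.2% of all tested genes. Only Atp5e and Atp5s were lower in every knockout than in any wild type library, where 8.61% of all tested genes were, and no subunit gene was higher in every knockout, where 10.8% were (19.4% in either direction). In bulk tissue, fewer cells of a type and less RNA per cell cannot be told apart.

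The direction depended on the scaling. With TMM the median log2 fold change of the subunit genes was -0.11 against 0.02 for all tested genes, and 51 of 81 lay below 0, as did 47.9% of all tested genes. With total counts and no scaling factor the medians were 0.18 and 0.32, so the subunit genes stood 0.13 below the median gene under both (-0.13 each time). Without knockout library 1, the lowest in every complex sum, this distance was -0.0638 with TMM, and the medians of complexes I, IV and V were -0.0671, -0.0544 and -0.0649. Without wild type library 5 the medians of complexes I and IV were -0.0774 and -0.0697. Under total counts 28 subunit genes passed the threshold, 27 higher and 1 lower, against 65.3% of all tested genes, and the higher share of all calls moved from 53.0% to 85.3%. Of the 15 calls, 3 held with total counts: Atp5e fell (-0.33, adjusted p = 0.017), and Ndufv3 (0.64, 6.53e-05) and Cox6a2 (3.16, 0.0101) rose. The values below use TMM and are read against the median gene.

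**Figure D1:**
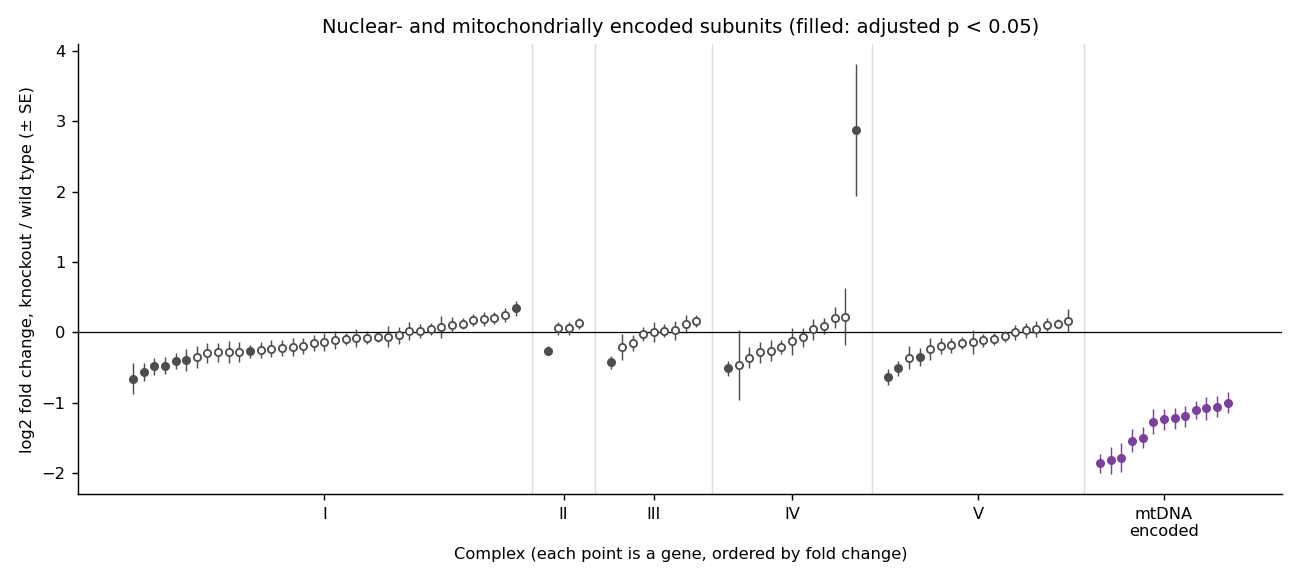
Log2 fold change of knockout over wild type with its standard error for each tested nuclear subunit gene, ordered within complexes I to V, and for the 13 mitochondrially encoded subunits; filled points passed an adjusted p under 0.05. Nearly all nuclear genes lie within 0.5 of 0, with Cox6a2 at 2.87, while the mitochondrially encoded genes lie between -1.86 and -1.002.

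Complex I, the NADH dehydrogenase, held 8 of the 15 calls among its 37 genes (21.6%, against 48.3% of all tested genes). Its median log2 fold change was -0.14 (0.15 with total counts). All 8 calls were grouped here with the accessory subunits, which surround the catalytic core: 1 rose and 7 fell among 30 (26.7%), with a median of -0.20. These counts follow the symbols and include Ndufa4, whose protein is now placed in complex IV. None of the 7 core subunits, which carry the flavin and the iron-sulfur clusters, passed the threshold, and 1 had an unadjusted p under 0.05. Their median was -0.07, and the difference between core and accessory genes was not tested.

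Ndufa4 ran from 21.4 to 54.7 CPM (median 30.5) in the wild type and from 11.9 to 34.2 (median 22.9) in the knockout. The groups overlapped, and the log2 fold change was -0.66 (SE 0.218, adjusted p = 0.0194). Its protein was first assigned to complex I and is now placed in complex IV. Ndufa6, a subunit of the LYR protein family, ran from 33.6 to 65.6 CPM (median 53.2) in the wild type and from 26.3 to 40.0 (median 34.9) in the knockout. Its fold change was -0.56 (SE 0.129, adjusted p = 0.00135), with 6 of 8 wild type libraries above every knockout. Ndufa2 ran from 29.5 to 53.5 CPM (median 40.2) against 20.8 to 39.7 (median 30.1), and fell by 0.48 on the log2 scale (SE 0.124, adjusted p = 0.00308). Its exons overlap Tmco6, so its counts are uncertain.

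The remaining falls in complex I were smaller: Ndufb11 (-0.47, adjusted p = 0.00333), Ndufa13 (-0.41, 0.00431), Ndufb4 (-0.40, 0.0457) and Ndufb2 (-0.27, 0.0185). Ndufb11, Ndufa13 and Ndufb2 overlap exons of Rbm10, Tssk6 and Braf. The Ndufb4 call was lost in 10 of 16 fits that left out 1 library. Ndufv3, a small accessory subunit of the NADH-oxidising module, went the other way. It ran from 38.8 to 55.5 CPM (median 46.7) in the wild type and from 43.6 to 80.1 (median 59.7) in the knockout, a rise of 0.34 (SE 0.107, adjusted p = 0.0128) with overlapping groups. The catalytic subunits had values near the median gene: Ndufv1, which binds NADH and flavin, had 46.0 ± 4.44 and 43.2 ± 5.76 CPM (SD, n = 8 each; log2 fold change -0.09, adjusted p = 0.388 from edgeR), and Ndufs1, the largest iron-sulfur subunit, had 54.7 ± 4.39 and 52.2 ± 4.22 CPM (-0.07, adjusted p = 0.389).

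Complex II, succinate dehydrogenase, also works in the tricarboxylic acid cycle. Sdha, the flavoprotein that oxidises succinate, ran from 94.8 to 117 CPM (median 107) in the wild type and from 75.4 to 102 (median 89.8) in the knockout. It fell by 0.26 on the log2 scale (SE 0.0667, adjusted p = 0.00328) with TMM, with overlapping groups, and had 0.0418 with total counts. The iron-sulfur subunit Sdhb ran from 30.0 to 41.8 CPM (median 33.3) and from 26.1 to 41.1 (median 35.3). The membrane anchors Sdhc and Sdhd had knockout medians of 34.4 and 39.4 CPM against 33.4 and 38.2. Log2 fold changes were 0.06 for Sdhb (adjusted p = 0.650), 0.13 for Sdhc (0.197) and 0.06 for Sdhd (0.632). Thus 1 of the 4 genes passed the threshold (25%, against 48.3% of all tested genes), and whether Sdha differed from its partners was not tested.

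In complex III, the cytochrome bc1 complex, 1 of 9 genes passed (11.1%, against 48.3% of all tested genes), and the median was 0.01. Uqcrh, the hinge protein beside cytochrome c1, ran from 41.1 to 63.5 CPM (median 52.9) in the wild type and from 29.3 to 45.6 (median 39.4) in the knockout. It fell by 0.43 (SE 0.0959, adjusted p = 0.00104), and the groups overlapped. The electron carriers did not pass: Cyc1, cytochrome c1, had 30.9 ± 2.78 and 31.3 ± 5.35 CPM (SD, n = 8 each; log2 fold change 0.02, adjusted p = 0.858 from edgeR), and Uqcrfs1, the Rieske iron-sulfur protein, had 31.1 ± 4.78 and 27.9 ± 5.28 (-0.15, adjusted p = 0.277).

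In complex V, ATP synthase, 3 of 18 genes passed, all lower, and the median was -0.12 (0.17 with total counts). This share was 16.7%, against 48.3% of all tested genes in either direction and 22.7% called lower. Atp5e, the epsilon subunit of the rotating central stalk, ran from 40.8 to 66.1 CPM (median 50.9) in the wild type and from 23.3 to 38.1 (median 34.4) in the knockout. Every knockout library lay below every wild type library, and the fold change was -0.63 (SE 0.112, adjusted p = 9.74e-05). Atp5s, named for coupling factor B and not a structural subunit, ran from 3.85 to 5.92 CPM (median 4.80) and from 2.95 to 3.67 (median 3.43), again without overlap (-0.51, SE 0.109, adjusted p = 6.68e-04). Atp5l, subunit g of the membrane part, had 67.3 ± 14.6 and 52.9 ± 7.94 CPM (SD, n = 8 each; -0.35, SE 0.126, adjusted p = 0.0296 from edgeR). Its call was lost without wild type library 5 or 8 or knockout library 1 or 3 (adjusted p 0.0611, 0.0648, 0.0566 and 0.0521), and 9 near-identical annotated copies make its counts uncertain.

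Neither of the main subunits of the catalytic head of complex V passed. Atp5a1, the alpha subunit, ran from 238 to 302 CPM (median 262) in the wild type and from 217 to 298 (median 255) in the knockout. Atp5b, the beta subunit that carries the catalytic sites, ran from 230 to 298 CPM (median 244) and from 217 to 348 (median 270). The log2 fold changes were -0.06 (adjusted p = 0.541) and 0.11 (adjusted p = 0.352), with groups that overlapped for both.

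**Figure D2:**
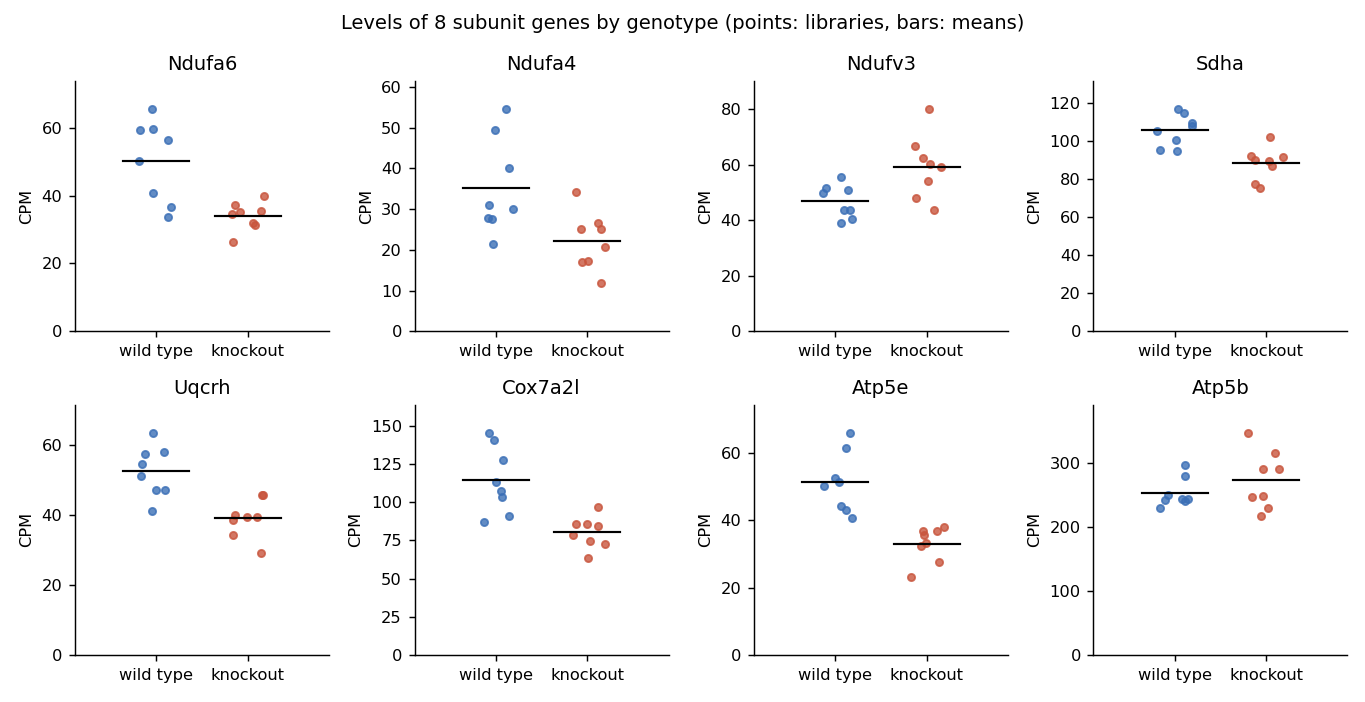
CPM of 8 subunit genes in each library (points) with group means (bars), 8 wild type and 8 knockout libraries per panel, each axis starting at 0. The groups are separate for Atp5e and overlap for the other 7, and Ndufv3 is the gene with a higher level in the knockout that passed the test.

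Complex IV, cytochrome c oxidase, had 2 calls among 13 tested genes (15.4%, against 48.3% of all tested genes). Its median was -0.13 (0.15 with total counts). Ndufa4, counted above with complex I, is not among these 13. Cox7a2l, which takes part in joining complexes III and IV into supercomplexes, ran from 87.1 to 146 CPM (median 110) in the wild type and from 63.5 to 96.7 (median 81.4) in the knockout. It fell by 0.51 (SE 0.107, adjusted p = 5.69e-04), and the groups overlapped. The ubiquitous isoforms did not pass: Cox6a1 -0.07 (adjusted p = 0.694), Cox6b1 0.09 (0.540), Cox7a2 -0.28 (0.136) and Cox8a -0.21 (0.104).

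Cox6a2, an isoform of muscle, was high in the libraries that were high in muscle markers. Summed over 20 muscle markers, levels ran from 128 to 11898 CPM in the wild type and from 469 to 27109 in the knockout. Of these markers 1, Myh2, was called higher (5%, against 25.6% of all tested genes). Their median log2 fold change was 1.74, with SEs of 0.632 to 1.30 against a median of 0.106 for all tested genes. The single call therefore does not show that muscle levels were alike. A total of 4 libraries had a marker sum above 10000 CPM: wild type 5 and knockout 6, 7 and 8. Cox6a2 ran from 0.151 to 9.11 CPM (median 0.986) in the wild type and from 1.44 to 39.9 (median 5.44) in the knockout, which is 2.87 higher on the log2 scale (SE 0.938, adjusted p = 0.0201). Its exons overlap Itgad on the other strand, so its counts are uncertain. Its 3 highest values, 36.3 to 39.9, were those of knockout libraries 6, 7 and 8, and wild type library 5 had 9.11. Without these 4 libraries the fold change was 1.32 (adjusted p = 0.123), while a fit that included the muscle score (mean log2 CPM of the markers) gave 1.23 (adjusted p = 0.00143).

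Cox8b showed another pattern. Over all libraries it ran from 4.80 to 12.4 CPM (median 6.81) in the wild type and from 0.722 to 12.8 (median 2.77) in the knockout, and the log2 fold change, -0.46 (SE 0.499), did not pass (adjusted p = 0.471). In the libraries not above the muscle limit, 7 wild type libraries had 4.80 to 12.4 CPM and 5 knockout libraries had 0.722 to 2.89, with no overlap. Leaving out the 4 libraries gave -1.89 (adjusted p = 1.3e-04), an alternative chosen after seeing the data, and the fit with the muscle score gave -1.25 (adjusted p = 0.0666). Cox7a1 ran from 1.10 to 6.90 CPM (median 2.48) and from 1.58 to 6.12 (median 1.86), and its 0.22 (adjusted p = 0.679) turned to -0.33 (0.350) without the 4 libraries.

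**Figure D3:**
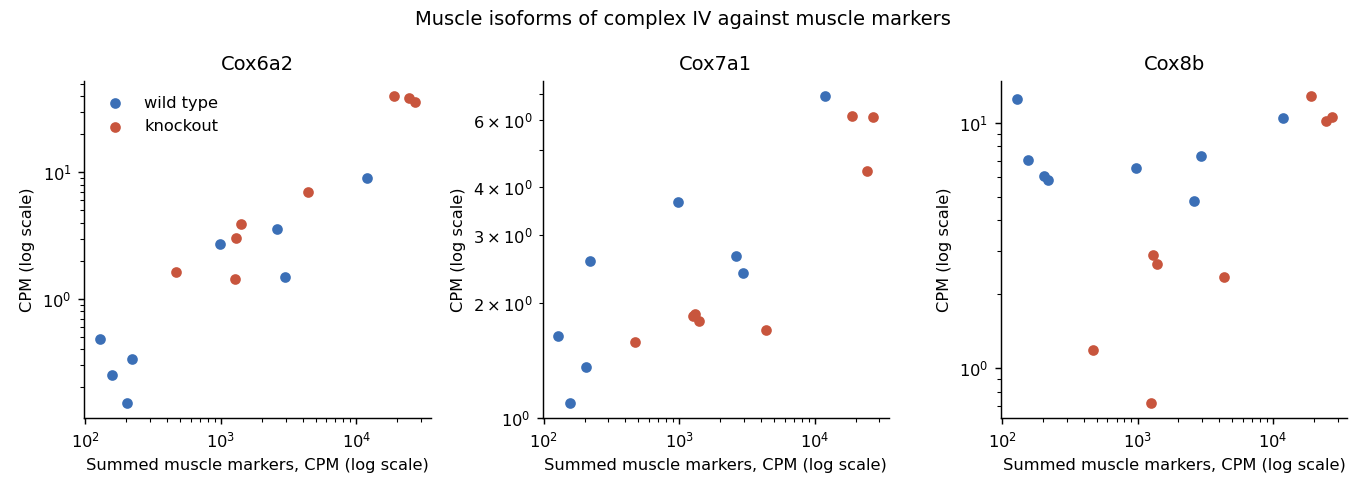
CPM of Cox6a2, Cox7a1 and Cox8b against the summed CPM of 20 muscle markers in the same library (both axes logarithmic), 1 point per library. Cox6a2 is high where muscle markers are high in both genotypes, while the 5 knockout libraries with lower muscle sums have the lowest Cox8b, 0.722 to 2.89 CPM.

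Ratios of isoforms of the same subunit within a library do not depend on scaling. The log2 ratio of Cox6a2 to Cox6a1 (2 counts added to each) was -5.28 ± 1.71 in wild type libraries and -2.59 ± 2.30 in knockout libraries (SD, n = 8 each; exact two-sided permutation p = 0.0218, adjusted over 5 ratios 0.0544). For Cox8b to Cox8a it was -2.90 ± 0.343 and -3.68 ± 1.56 (exact permutation p = 0.199, adjusted 0.277). Without the 4 muscle-rich libraries (1 wild type and 3 knockout) the difference was -1.71 (exact permutation, adjusted p = 0.00316). That set was chosen after seeing the data, so this p-value does not stand beside the planned one. Cox7a1 to Cox7a2 (difference 0.44, exact permutation p = 0.287, adjusted 0.287) and Cox6b2 to Cox6b1 (0.36, p = 0.221, adjusted 0.277) did not pass.

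The fifth ratio concerned Cox4, the largest nuclear subunit of complex IV, which lies outside the symbols taken here. Cox4i2, an isoform known to be raised by low oxygen, ran from 1.59 to 3.74 CPM in the wild type and from 56.5 to 103 in the knockout, without overlap (log2 fold change 4.80, SE 0.200, adjusted p = 1.38e-12). The ubiquitous Cox4i1 had 142 ± 25.5 and 117 ± 20.8 CPM (SD, n = 8 each; -0.27, adjusted p = 0.0664 from edgeR). Their log2 ratio moved from -5.66 ± 0.496 to -0.62 ± 0.293 (SD, n = 8 each; exact permutation p = 0.000155, the smallest possible, adjusted 0.000777). Per kb of exon, mean Cox4i2 was 3.48 against 91.4 CPM for Cox4i1 in the wild type, and 97.5 against 75.8 in the knockout. None of the members changed by as much.

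**Figure D4:**
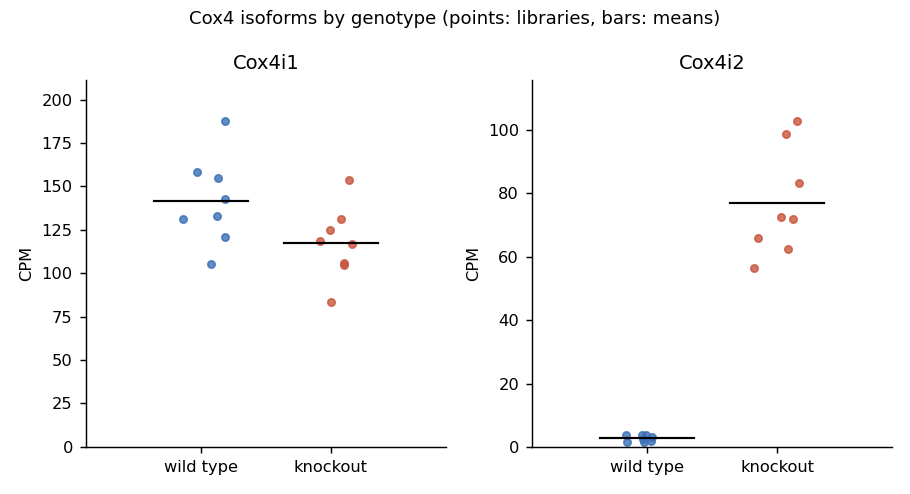
CPM of Cox4i1 and Cox4i2 in each library (points) with group means (bars), 8 wild type and 8 knockout libraries, axes starting at 0. Cox4i1 overlaps between the genotypes, while Cox4i2 lies at 1.59 to 3.74 in the wild type and 56.5 to 103 in the knockout.

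Summed levels put the whole complexes side by side. Complex I summed to 1057 ± 135 CPM in wild type and 969 ± 139 in knockout libraries, complex II to 209 ± 12.9 and 197 ± 21.1, and complex III to 348 ± 41.3 and 335 ± 51.2 (SD, n = 8 each). Complex IV summed to 521 ± 87.9 and 464 ± 75.5, and complex V to 1208 ± 118 and 1150 ± 157. The groups overlapped in all 5. Knockout library 1 was the lowest of 16 and wild type library 2 the lowest wild type in each of the 5, so the sums of the complexes shared their low libraries.

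The mitochondrially encoded subunits of the same complexes all fell. Each of the 13 passed the test, and did so without overlap between the groups (against 8.61% of all tested genes), with a median log2 fold change of -1.24 and a range from -1.86 (mt-Co3) to -1.002 (mt-Nd3). With total counts the median was -0.93, and 13 of 13 were again called lower. mt-Co1, the catalytic subunit of complex IV, had 5002 ± 419 and 2123 ± 663 CPM, and mt-Cytb, cytochrome b of complex III, 1895 ± 199 and 651 ± 208 (SD, n = 8 each). For 8 of the 13 a near-identical copy is annotated elsewhere, so their counts are uncertain. The others, mt-Nd1, mt-Nd2, mt-Nd6, mt-Cytb and mt-Atp8, had fold changes of -1.10, -1.08, -1.19, -1.54 and -1.78. Of these, mt-Nd6 overlaps mt-Nd5 on the other strand and mt-Atp8 overlaps mt-Atp6, so their counts are uncertain too. mt-Nd1 and mt-Nd2 overlap mt-Ti and mt-Tw, and mt-Cytb has no annotated overlap.

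The summed level of the nuclear subunits was 3342 ± 386 CPM in wild type and 3115 ± 437 in knockout libraries, and that of the 13 mitochondrially encoded ones was 12172 ± 1220 and 5118 ± 1439 (SD, n = 8 each). The ratio of the mitochondrially encoded to the nuclear sum within a library ran from 3.31 to 4.19 in the wild type and from 1.25 to 2.08 in the knockout, without overlap. By complex the mean ratio went from 4.87 to 2.37 in complex I, from 5.46 to 1.93 in complex III, from 9.93 to 4.58 in complex IV and from 0.0554 to 0.0168 in complex V. In the wild type mt-Co1 had a mean of 5002 CPM, against 42.7 for mt-Co2 and 43.4 for mt-Co3. The 2 genes of complex V, mt-Atp6 and mt-Atp8, had 48.8 and 18.8. All of these but mt-Atp8 have a near-identical annotated copy, so the ratios of complexes IV and V are uncertain. They cannot be compared with those of the other complexes, and why these genes were low was not tested. Knockout libraries 6, 7 and 8, rich in muscle markers, had mitochondrially encoded sums of 6010 to 7319 CPM, against 3314 to 4519 in the other 5. Without the 4 muscle-rich libraries the median fold change of the 13 was -1.51.

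**Figure D5:**
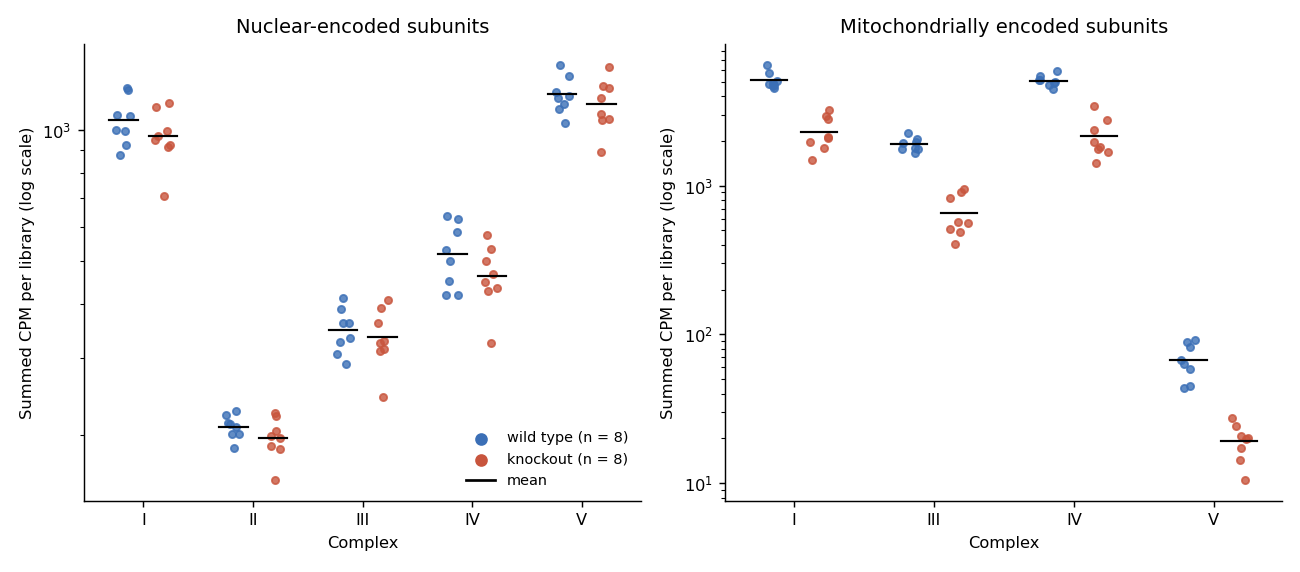
Summed CPM per library of nuclear-encoded (left) and mitochondrially encoded (right) subunits by complex, on logarithmic axes, with points for libraries and bars for group means (8 per genotype). The genotypes overlap in every nuclear sum and in none of the mitochondrially encoded sums.

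Assembly factors help to build the complexes without staying in them. Of 18 tested complex I assembly factors, 11.1% passed the threshold, against 48.3% of all tested genes: Ecsit rose (0.27, adjusted p = 0.0320) and Timmdc1 fell (-0.37, 0.00248), with a median of -0.03. Of 34 for complexes II to V, 3 rose and 7 fell (29.4%), with a median of -0.09: Sdhaf4, which assists the maturation of Sdha, fell by 0.54 (adjusted p = 0.00102), Coa6 by 0.44 (0.0174) and Cox16 by 0.38 (0.00128). Among 13 tested partners of the chain outside the symbol rule, 4 rose and 3 fell, a share of 53.8% that is near the 48.3% of all tested genes. After Cox4i2 the largest rises were Higd1a (2.36, adjusted p = 2.69e-09), a hypoxia-induced inner membrane protein, and Ndufa4l2 (1.38, 7.94e-09), the paralog of Ndufa4. Sqor, which feeds electrons from sulfide to ubiquinone, fell by 0.48 (4.37e-04).

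Markers of tendon and other cells were read beside these results, against 25.6% of all tested genes called higher and 22.7% called lower. Tenocyte markers summed to 130713 to 380350 CPM in the wild type and 77498 to 180971 in the knockout, with 1 of 10 called higher and 6 lower. Most of these sums came from Col1a1 and Col1a2, with means of 153261 and 107808 CPM in the wild type and 79524 and 39761 in the knockout. Endothelial markers summed to 40.7 to 59.4 and 57.9 to 526 CPM (6 of 8 tested higher), macrophage markers to 1029 to 1440 and 1216 to 1677 (4 of 8 higher), and erythroid markers to 14.2 to 45.2 and 71.3 to 518 (4 of 4 tested higher). Adipocyte markers summed to 0.289 to 2.30 and 0.934 to 66.2 CPM, and Fabp4 was the 1 of 8 that could be tested and rose. No marker of these lists was at 0 in all 16 libraries. The part of these cells in the subunit levels was not tested. In the fit with the muscle score, all 15 subunit calls remained among 18 (background 43.7%), and without the 4 muscle-rich libraries 12 remained among 14 (background 40.9%).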

How the data were processed

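Values are whole-number gene counts, 1 file per library, deposited by the authors. Per the submitters' processing notes, kallisto, featureCounts and build GRCm39 were used; versions, roles, annotation and strand are not given in the sources used here. Samples were grouped by genotype in their titles. Symbols (25614 of 25719 identifiers matched), exon lengths, overlaps and near-identical copies (at least 95% identity over 50% of the transcript) came from GENCODE M21, an annotation of GRCm38, so no coordinates of the counted genes are given. Promoter windows are RefSeq, GRCm38.p6, and the NRF1 motif was shortened after a longer form had been searched in them.

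All tested genes were fitted together with edgeR 4.0.16 in R 4.3.3 (robust quasi-likelihood test, two-sided, TMM, default expression filter, genotype only), with Benjamini-Hochberg adjustment over 14803 genes and a threshold of 0.05. TMM factors were 0.903 ± 0.0766 for wild type and 1.11 ± 0.0334 for knockout libraries (SD, n = 8 each). Levels are CPM. Isoform ratios used exact permutation over 12870 assignments (smallest p 0.000155). The steps were tested on simulated data. No pair of libraries within a genotype was a repeat (lowest chi-square per degree of freedom 6.56), and pairs across genotypes were not checked. Alternatives were DESeq2 1.42.0 size factors and its Wald test, total counts, 2 filters, limma 3.58.1 (voom), a replicate block, a muscle covariate, a pseudocount of 0.5, each library left out, and, chosen after seeing the data, leaving out 4 muscle-rich libraries. The members and lists were chosen with earlier results of these data known. Named genes were the 3 largest called rises and falls in complexes I, III, IV and V, all of complex II, the complex IV isoform pairs, 6 catalytic subunits, Ndufa4, Vhl and Cox4 (Atp5if1, also in the rule, is not analysed here), and up to 3 called genes of each list by size of change. The remaining called subunits of complex I were named after their values were seen.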

Additional observations from a re-analysis of the deposited data

Results flagged for a closer look

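A library stood far from the rest of its group, by Dixon's criterion at 95%, in 4 of 106 checks, where chance gives about 5.30. In the wild type, Sdhb in library 5 had 5.39 on the log2 CPM scale, with the next highest at 5.11, and Cyc1 in library 5 had 5.22, with the next at 5.00. Library 5 was also the wild type library richest in muscle markers. In the knockout, Sdhd in library 1 had 4.82, with the next lowest at 5.22, and the log2 summed CPM of complex I in library 1 was 9.47, with the next at 9.84. Library 1 had the lowest sum in each of the 5 complexes.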

How the results depend on the processing

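With DESeq2 size factors, its Wald test, no filter or a mean count of at least 10, counts of called subunit genes stayed within 1.5 times those reported. These fits called 38.4% to 49.9% of all tested genes. Total counts moved the subunit calls to 27 higher and 1 lower, with 3 in complex II, 4 in complex III and 8 in complex V. Of all tested genes 65.3% were then called. Among the named genes, total counts turned the direction of Sdha (0.0418), Cox6a1 (0.23), Cox8a (0.0896), Ndufv1 (0.21), Ndufs1 (0.23), Uqcrfs1 (0.15), Atp5a1 (0.25) and Cox4i1 (0.0296). limma-voom gave 5 higher, with 50% of all tested genes called in either direction. Deviations of same-numbered libraries from their group means, over all tested genes, had correlations from -0.40 to 0.39. For 1 of the 8 numbers, the wild type library correlated best with the knockout library of its own number. Such correlations cannot exclude a pairing, and the labels name none. With the numbers as a replicate block there were 5 higher, 13 called in complex I, 2 in complex III and 5 in complex V. That fit called 47.4% of all tested genes in either direction. Cox6a2 then lost its call (2.53, adjusted p = 0.166 from edgeR). Among the named genes, the muscle covariate turned Cox6a1 (0.0353), Cox7a1 (-0.49) and Cyc1 (-0.0607). Leaving out the 4 muscle-rich libraries gave 1 higher, with 40.9% of all tested genes called in either direction. Among the named genes, it turned Cox6a1 (0.0937), Cox6b1 (-0.0121), Cox7a1 (-0.33), Cyc1 (-0.0631) and Atp5b (-0.0023). The difference in the log2 ratio of Cox8b to Cox8a was then -1.71, in a set chosen after seeing the data. A pseudocount of 0.5 gave 2.94 for the ratio of Cox6a2 to Cox6a1 (adjusted p = 0.0462). Cox4i1, which did not pass, did so with DESeq2 size factors (-0.28, adjusted p = 0.0493), the DESeq2 Wald test (0.0394), the replicate block (0.0397) and without wild type library 2 (0.0256) or 4 (0.0493) or knockout library 5 (0.020). Cox8a passed with limma-voom (-0.22, 0.0487) and without knockout library 5 (0.0105), and Cox7a2 with the replicate block (-0.28, 0.0372). Leaving out each library gave 2 to 6 higher (6 without knockout library 1, 4 without wild type library 8) and 11 to 19 lower. In these fits 45.8% to 48.1% of all tested genes were called in either direction. The Cyc1 fold change was -0.0133 to 0.0729, below 0 without knockout library 5, 6 or 7. The difference in the log2 ratio of Cox6a2 to Cox6a1 was 2.32 to 3.09, which passed without wild type library 5 or knockout library 4 or 5. Apart from the scalings, the cause of these shifts was not tested. Cox6b2, Cox7b2 and Cox8c were too low to test, and limited depth was not told apart from low or absent expression.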

Other observations

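Other mitochondrial gene groups are given with the share of each that passed the threshold, against 48.3% of all tested genes. Differences between the groups were not tested. Of 16 genes of the outer membrane and protein import, 7 rose and 3 fell (62.5%), with a median log2 fold change of 0.11: the channel Vdac1 rose from 118 ± 16.3 to 310 ± 29.1 CPM (SD, n = 8 each; 1.39, adjusted p = 8.90e-11 from edgeR), the chaperone Hspa9 rose by 0.62 (5.72e-07) and the co-chaperonin Hspe1 fell by 0.62 (3.63e-05). Of 20 genes of mitochondrial gene expression and biogenesis, 6 rose and 2 fell (40.0%, near the share of all tested genes; median 0.06). Among them the matrix protease Lonp1 rose from 38.4 ± 3.65 to 84.5 ± 8.84 CPM (SD, n = 8 each; 1.14, adjusted p = 1.65e-10 from edgeR), the Myc antagonist Mxi1 rose by 0.89 (1.15e-04) and the coactivator Ppargc1a, at 2.00 ± 0.489 CPM in the wild type, fell by 1.03 (0.00643).

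Of 78 mitochondrial ribosomal protein genes, which translate the mitochondrially encoded subunits, 8 rose and 3 fell (14.1%, median 0.06), led by Mrpl54 (0.55, adjusted p = 8.24e-04), Mrps18b (0.42, 0.00474) and Mrpl38 (0.35, 0.00524). Of 18 tricarboxylic acid cycle genes, 2 rose and 3 fell (27.8%, median -0.01): Idh2 fell by 0.38 (adjusted p = 5.50e-04) and Suclg2 by 0.28 (0.0120), while Dlst rose by 0.22 (8.67e-04) and was higher in every knockout than in any wild type library.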
